A study of Mus musculus with 23 samples.

Results

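The lung lineage transcription factors described here are 10 genes, Nkx2-1, Foxa1, Foxa2, Cebpa, Gata6, Klf5, Elf3, Elf5, Foxp1 and Foxp2, taken as a list of names. All 10 were found by symbol in both deposited tables of normalized counts, among 35455 genes in one and 35454 in the other, and all 10 had a mean of at least 10 normalized counts, the limit for testing. RNA had been sequenced from tdTomato+ lung tumor cells, sorted by flow cytometry from mice of mixed background, aged 3 to 4 months, in 23 libraries. The mice carried Braf CAT, an allele that after CRE recombination makes BRAFV600E together with the red fluorophore tdTomato. CRE was delivered by Ad5-Sftpc-CRE, an adenovirus that drives it from the promoter of Sftpc, the gene for surfactant protein C, so that tumors began in alveolar type 2 (AT2) cells. One table holds 6 libraries of BRAFV600E tumors and 8 of BRAFV600E/PI3KαH1047R tumors, which also carry the Pik3ca lat-H1047R allele of a PI3-kinase subunit. They were taken at 2, 6 or 12 weeks after induction, with 1, 3 and 2 BRAFV600E libraries and 2, 4 and 2 BRAFV600E/PI3KαH1047R libraries. The other table holds 5 libraries of BRAFV600E/PGC1αHet tumors, with 1 floxed copy of Ppargc1a, and 4 of BRAFV600E/PGC1αNull littermates with both copies floxed, all at 12 weeks. Mice taken at 12 weeks received a lower virus titer than those taken at 2 or 6 weeks, so the effects of week and titer cannot be told apart where 12 weeks is compared with an earlier week. The 2 tables were normalized separately, and levels are compared only within a table.

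NKX2-1 is the homeodomain factor that defines the lung and thyroid lineages, and in the adult lung it is required for the surfactant genes of AT2 cells. FOXA1 and FOXA2 are forkhead factors that open chromatin and bind beside NKX2-1, and CEBPA, a leucine zipper factor, acts in the maturation of AT2 cells. GATA6 and KLF5 act in the growth and specification of the distal lung epithelium, ELF3 and ELF5 are epithelial ETS factors, of which ELF5 marks distal progenitors, and FOXP1 and FOXP2 are forkhead repressors of the airway and alveolar epithelium.

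Some libraries stood apart before any comparison. Epcam, a surface protein of epithelial cells, was at 221, 389 and 446 normalized counts in 3 libraries, BRAFV600E/PI3KαH1047R at 2 weeks replicates 1 and 2 and at 6 weeks replicate 1. In the other 11 libraries of that table it was between 1244 and 3023. The summed level of 10 endothelial markers was 62384, 62976 and 88993 in those 3 libraries and between 5580 and 43247 in the other 11, and all 10 markers were above 0 in every library of the table. The 3 libraries were also above the other 11 in the summed level of 6 fibroblast markers (19849 to 30347 against 2069 to 11294) and of 7 markers of alveolar type 1 (AT1) cells, the flat epithelial cells of the alveolus (93725 to 134192 against 24835 to 83879), with all markers of both lists above 0 in each library. They were above them as well in the sum of 5 ciliated cell markers (1884 to 2220 against 129 to 1281). Only 2 of these 5 were above 0 in BRAFV600E/PI3KαH1047R 2 weeks replicate 1. The 3 libraries were below the other 11 in the sum of 7 AT2 markers, at 52264 to 218756 against 442016 to 1209780. The sort was gated on tdTomato. Pooled differences and slopes in that table are given with and without these 3 libraries, a choice made after the data were seen, and no comparison at 2 weeks can be made without them. In bulk RNA, fewer cells of a type and less RNA per cell cannot be told apart. At 12 weeks the BRAFV600E/PI3KαH1047R library labelled male had 502 normalized counts of the Y-linked gene Kdm5d and the one labelled female had 4728, which goes against both labels. At 2 weeks the BRAFV600E library is labelled female and the pair of BRAFV600E/PI3KαH1047R libraries male, and at that time the effect of sex and that of PI3KαH1047R cannot be told apart. All 7 AT2 markers, Sftpc, Sftpb, Sftpa1, Abca3, Lamp3, Slc34a2 and Napsa, were above 0 in every library of both tables.

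Promoter sequence is shown for the factor the list is named for, for Cebpa, the member with the slope nearest 1 on Sftpc over the 14 libraries of the first table, and for 2 surfactant genes that NKX2-1 is known to drive, since the members are compared with surfactant expression below. The 250 bases before the transcription start are from RefSeq (GRCm38.p6), 5′ to 3′ on the strand of the gene, and matched for 7 of the 10 members. Capitals mark CAAGTG, the core of the NKX2-1 site, TGTTTNC, a forkhead site, and TTNNGNAA, a site of the CEBP family, searched on both strands. Each window is given with its strand.
Nkx2-1, chr12:56536909-56537158, minus strand: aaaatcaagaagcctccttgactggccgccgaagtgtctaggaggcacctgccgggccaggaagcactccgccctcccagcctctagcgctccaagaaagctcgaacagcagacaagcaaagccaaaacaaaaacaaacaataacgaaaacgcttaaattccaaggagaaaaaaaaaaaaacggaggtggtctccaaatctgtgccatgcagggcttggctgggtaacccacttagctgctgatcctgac
Cebpa, chr7:35119043-35119292, plus strand: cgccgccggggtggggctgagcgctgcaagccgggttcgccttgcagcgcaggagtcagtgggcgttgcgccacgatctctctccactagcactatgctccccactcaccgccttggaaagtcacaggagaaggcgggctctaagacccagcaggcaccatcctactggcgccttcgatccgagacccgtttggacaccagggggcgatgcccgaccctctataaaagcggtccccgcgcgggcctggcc
Sftpa1, chr14:41131538-41131787, plus strand: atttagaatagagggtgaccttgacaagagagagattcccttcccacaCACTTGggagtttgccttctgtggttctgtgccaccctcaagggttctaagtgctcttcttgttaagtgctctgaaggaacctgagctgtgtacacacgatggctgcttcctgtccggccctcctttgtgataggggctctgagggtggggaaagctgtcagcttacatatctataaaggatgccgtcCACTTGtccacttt
Sftpb, chr6:72304360-72304609, plus strand: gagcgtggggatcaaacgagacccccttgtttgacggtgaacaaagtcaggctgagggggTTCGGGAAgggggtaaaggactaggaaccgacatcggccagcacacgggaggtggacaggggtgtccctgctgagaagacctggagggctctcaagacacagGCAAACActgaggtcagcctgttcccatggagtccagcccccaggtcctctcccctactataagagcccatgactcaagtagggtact
The window of Sftpa1 holds CAAGTG 2 times, starting 202 and 14 bases before the transcription start, both read on the opposite strand. That of Sftpb holds 1 forkhead site and 1 CEBP site, 88 and 190 bases before the start. The Nkx2-1 and Cebpa windows hold none of the 3 motifs, which says only that these letters are not in them. Of 32536 promoter windows of this length, 11.5% hold CAAGTG, 17.8% TGTTTNC and 36.8% TTNNGNAA.

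Whether activated PI3-kinase changed the lineage factors of BRAFV600E tumors was asked first with the weeks together. No member passed an adjusted p of 0.05 in limma (0 of 10, with 0.0228% of all 17558 tested genes called), and 1 member, Foxp1, had an unadjusted p under 0.05, as 6.83% of all genes did. All 10 fitted differences were below 0, with a median of -0.54 on the log2 scale, where the median of all tested genes was 0.02. By label 5 of the 6 BRAFV600E and 3 of the 8 BRAFV600E/PI3KαH1047R libraries were female, and with sex as a factor the median was -0.33, with all 10 below 0. Leaving out the 3 libraries with low Epcam brought the median of the members to -0.12, with 7 of 10 below 0. Fold changes are on the log2 (normalized count + 1) scale throughout.

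Nkx2-1 (chr12:56531958-56536908, minus strand, GRCm38) had 4584 normalized counts in the BRAFV600E library of 2 weeks, 4825, 3603 and 3352 at 6 weeks, and 3768 and 5330 at 12 weeks. In BRAFV600E/PI3KαH1047R tumors it had 2552 and 1964 at 2 weeks, 2308, 4199, 4337 and 5538 at 6 weeks, and 4352 and 5461 at 12 weeks. The lowest 3 values of the table were those of the 3 low Epcam libraries, and the 2 highest were BRAFV600E/PI3KαH1047R libraries as well. Group means ran from 2258 in BRAFV600E/PI3KαH1047R at 2 weeks through 3927 and 4096 at 6 weeks without and with PI3KαH1047R, 4549 in BRAFV600E at 12 weeks and the single 2 week BRAFV600E library, to 4907 in BRAFV600E/PI3KαH1047R at 12 weeks. Every pair of neighbours in this order overlapped in its library values or came within them, apart from the lowest group and BRAFV600E at 6 weeks. With the weeks pooled Nkx2-1 averaged 4244 ± 783 (SD, n = 6) in BRAFV600E and 3839 ± 1398 (SD, n = 8) in BRAFV600E/PI3KαH1047R. The log2 difference was -0.22 ± 0.24 (SE), with a 95% interval of -0.74 to 0.30 and an adjusted p of 0.875 in limma. It was 0.18 without the 3 low Epcam libraries and 0.35 when each library was read relative to its epithelial score, the mean log2 level of 7 epithelial markers (two-sided exact permutation p = 0.157). With both changes it was -0.01 (two-sided exact permutation p = 0.913). So the sign of the Nkx2-1 difference turned with the libraries or scale used, and none of these values passed the test. Epcam, read relative to the same score, differed by -0.48 (two-sided exact permutation p = 0.0160). All 8 BRAFV600E/PI3KαH1047R libraries were below the BRAFV600E mean. Without the 3 low Epcam libraries it differed by -0.27 (two-sided exact permutation p = 0.0606). Epcam and the score thus did not move together, and differences on this scale depend on the markers chosen for the score.

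**Figure D1:**
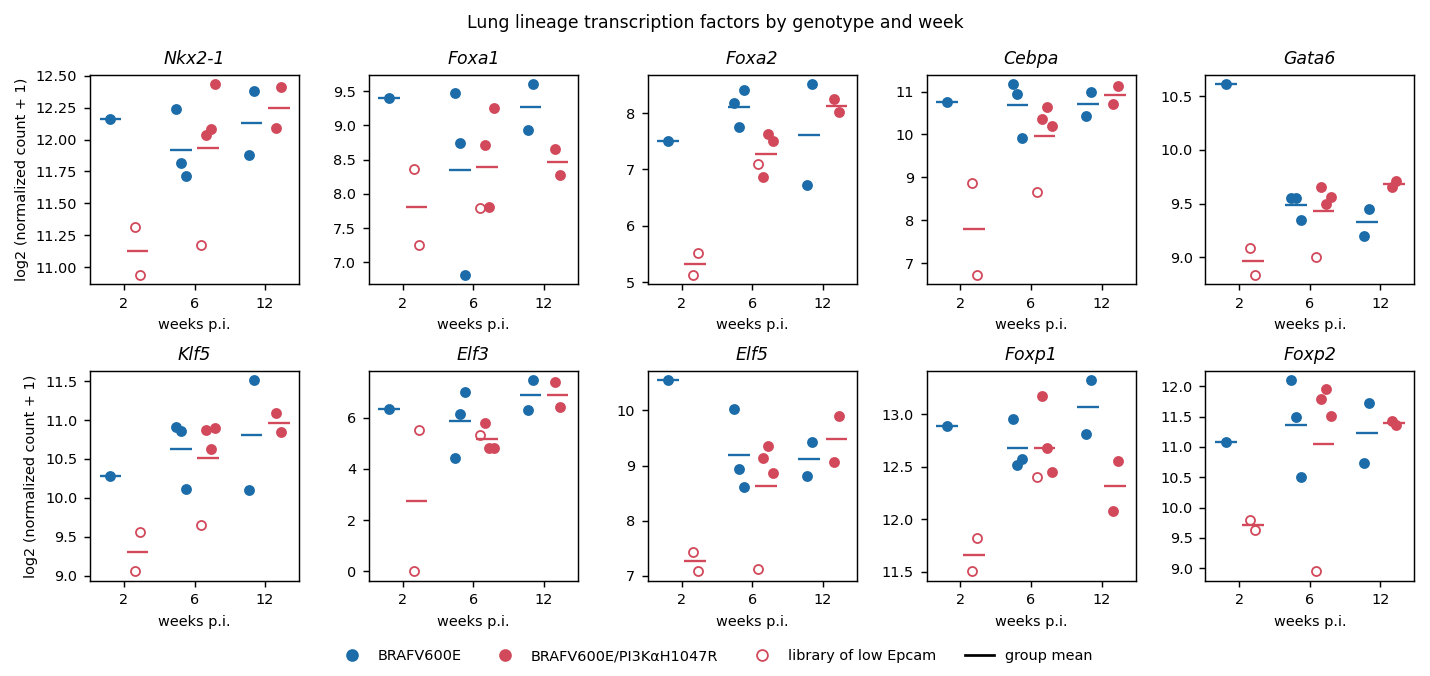
Log2 (normalized count + 1) of the 10 lineage factors, one panel per gene, against weeks after induction in the 14 BRAFV600E (blue) and BRAFV600E/PI3KαH1047R (red) libraries. Points are libraries, lines are group means and open points are the 3 libraries of low Epcam, which hold the 3 lowest values of 6 of the 10 members and of 5.09% of all tested genes.

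The FOXA genes, which act together in the lung epithelium, were read by week first. Foxa2 (chr2:148042877-148046969, minus strand) had 287, 215 and 340 normalized counts in BRAFV600E at 6 weeks and 136, 115, 196 and 180 in BRAFV600E/PI3KαH1047R. All 4 libraries with PI3KαH1047R were thus below all 3 without it, a log2 difference of -0.84 (two-sided exact permutation p = 0.0286, the smallest that 4 against 3 libraries allow, adjusted p = 1.0 in limma). It was the 1 member of 10 with a permutation p under 0.05 at 6 weeks, and 2.6% of all tested genes had all 4 libraries below all 3. Relative to the epithelial score the difference of Foxa2 was -0.65 (two-sided exact permutation p = 0.314), with 3 libraries below and 1 above all BRAFV600E libraries. At 12 weeks the values were 104 and 365 without and 302 and 260 with PI3KαH1047R, so the groups overlapped there. At 2 weeks Foxa2 had 180 in the BRAFV600E library against 34.1 and 45.1. Foxa1 (chr12:57540628-57546916, minus strand) ranged from 112 to 776 with a median of 583 in BRAFV600E and from 152 to 609 with a median of 319 in BRAFV600E/PI3KαH1047R, and the groups overlapped over most of this range. Its pooled log2 difference was -0.56 ± 0.41 (SE, adjusted p = 0.800, limma), and it was -0.29 without the low Epcam libraries. Its lowest value was in a BRAFV600E library, 6 weeks replicate 3, which had the highest endothelial sum of the BRAFV600E libraries, 43247. Without that library the pooled difference of Foxa1 was -0.97 ± 0.30 (SE, unadjusted p = 0.00654, adjusted p = 0.466, limma), and its difference at 6 weeks went from 0.05 to -0.72. For Foxa2 the pooled difference was -0.84 ± 0.48 (SE, adjusted p = 0.750, limma), and -0.19 without the low Epcam libraries.

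Cebpa (chr7:35119293-35121928, plus strand) covered the widest fold range of the members with no value at 0. It had 1721 normalized counts in BRAFV600E at 2 weeks, 2311, 1971 and 973 at 6 weeks, and 1383 and 2032 at 12 weeks. With PI3KαH1047R it had 463 and 105 at 2 weeks, 404, 1322, 1592 and 1172 at 6 weeks, and 1668 and 2222 at 12 weeks. The 3 low Epcam libraries were the only ones under 500, and all other 11 were at 973 or above. The pooled log2 difference was -1.04 ± 0.56 (SE, adjusted p = 0.741, limma), a 2.06-fold lower level, and it was -0.10 without those 3 libraries.

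Among the other regulators of the distal epithelium, Klf5 (chr14:99298691-99315036, plus strand) ranged from 1099 to 2914 with a median of 1553 in BRAFV600E and from 532 to 2171 with a median of 1713 in BRAFV600E/PI3KαH1047R. Its values overlapped between genotypes, with a log2 difference of -0.31 ± 0.35 (SE, adjusted p = 0.876, limma) that was 0.24 without the low Epcam libraries. Gata6, on chromosome 18, had 1564 normalized counts in the BRAFV600E library of 2 weeks and between 586 and 750 in the other 5 BRAFV600E libraries. In BRAFV600E/PI3KαH1047R it was between 456 and 835. Its log2 difference was -0.24 ± 0.23 (SE, adjusted p = 0.854, limma), and it was -0.0038 without the low Epcam libraries. The high library is the single BRAFV600E library of 2 weeks, and the difference at that time rests on it. Without it the pooled difference of Gata6 was -0.045.

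The ETS factors were more scattered. Elf5 (chr2:103411688-103450989, plus strand) had 1490 in BRAFV600E at 2 weeks, 1043, 489 and 392 at 6 weeks and 451 and 684 at 12 weeks. With PI3KαH1047R it had 172 and 135 at 2 weeks, 139, 560, 654 and 465 at 6 weeks and 532 and 954 at 12 weeks. The pooled log2 difference of Elf5 was -0.90 ± 0.48 (SE, adjusted p = 0.738, limma), and -0.13 without the 3 low Epcam libraries (two-sided exact permutation p = 0.747). Elf3 (chr1:135253575-135258568, minus strand) ranged from 20.6 to 175 in BRAFV600E and was listed at 0 in 1 BRAFV600E/PI3KαH1047R library, 2 weeks replicate 1, with up to 167 in the others. Elf3 is the least precise member here, and its pooled difference of -1.27 ± 0.88 (SE, adjusted p = 0.782, limma) was -0.56 without that library and -0.43 without all 3 of low Epcam.

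FOXP1 and FOXP2 act together in alveolar and airway epithelium. Foxp1 (chr6:98925338-99522721, minus strand) was at 7595 normalized counts in BRAFV600E at 2 weeks, 7917, 5858 and 6082 at 6 weeks and 7185 and 10234 at 12 weeks. With PI3KαH1047R it was at 2902 and 3613 at 2 weeks, 5415, 9230, 6559 and 5572 at 6 weeks and 4315 and 6013 at 12 weeks. Of the 8 BRAFV600E/PI3KαH1047R libraries 5 were below all 6 BRAFV600E libraries. Foxp1 had the lowest unadjusted p of the members in the pooled comparison, with a log2 difference of -0.51 ± 0.23 (SE, 95% interval -0.998 to -0.026, p = 0.0401 and adjusted p = 0.710 in limma, two-sided exact permutation p = 0.0539). Without the 3 low Epcam libraries it was -0.26 (two-sided exact permutation p = 0.247). The log2 difference of Foxp1 was -1.23 at 2 weeks and -0.75 at 12 weeks, while at 6 weeks its 95% interval ran from -0.54 to 0.53. Foxp2 (chr6:14901349-15441977, plus strand) ranged from 1448 to 4380 in BRAFV600E and from 493 to 3977 in BRAFV600E/PI3KαH1047R. Its lowest 3 values, 493, 794 and 883, were those of the low Epcam libraries, and without them the log2 difference of Foxp2 was 0.34 in place of -0.47 ± 0.47 (SE, adjusted p = 0.861, limma). Foxp1 overlaps Gm20696 on the same strand, which was listed at 98.8 to 492 normalized counts in these libraries, so a share of reads could be split between them. Nkx2-1, Cebpa, Elf3 and Gata6 have annotated antisense partners, and since the use of strand in the counting is not given in the sources used here, reads of such partners cannot be told apart from theirs.

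Across the 10 members, all 3 low Epcam libraries were below each of the other 11 for 6 of them, Nkx2-1, Cebpa, Gata6, Klf5, Elf5 and Foxp2, as they were for 5.09% of all tested genes. The same held for Sftpc, at 21173 to 82500 normalized counts against 164859 to 392700. For 9 of the 10 members at least 2 of the 3 libraries were among the 3 lowest, Elf3 being the exception, where 23.3% of all tested genes showed this. Read relative to the epithelial score, 6 members were above 0 and 4 below in BRAFV600E/PI3KαH1047R, and without the 3 low Epcam libraries 2 were above and 8 below. With all libraries Klf5 was at 0.26 and Gata6 at 0.33 on this scale, and without the 3 they were at 0.04 and -0.20. The differences of Cebpa, Elf5, Foxa2 and Elf3 were -0.47, -0.33, -0.27 and -0.70 with all libraries, and -0.29, -0.33, -0.39 and -0.63 without the 3. Foxa1 went from 0.0066 to -0.48 and Foxp1 from 0.06 to -0.45, while Foxp2 was at 0.10 and 0.14. Two-sided exact permutation p-values were 0.154 to 0.988 over the 10 with all libraries. Without the 3 they were 0.0455, for Foxp1, to 0.913, not adjusted over the members, and 1 of 10 was under 0.05. How many of all genes were under 0.05 on this scale is not given, so this count cannot be weighed. The direction of 4 members, Nkx2-1, Foxa1, Gata6 and Foxp1, thus turned on this scale with the libraries used.

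By week, the member median of the differences with PI3KαH1047R was farthest from 0 at 2 weeks, the time with the fewest libraries. All 10 members had a fitted difference below 0 there, with a median of -1.62, and 6 had an unadjusted p under 0.05, as 13.5% of all genes did, but 0 of 10 passed the adjusted threshold (0.0171% of all genes called). Elf5 had a difference of -3.28 ± 0.83 (SE, adjusted p = 0.137), a 9.71-fold lower level, and Cebpa -2.96 ± 0.89 (adjusted p = 0.183). When 1 library was left out in turn, Elf5 ran from -3.46 to -3.10 and Cebpa from -4.02 to -1.89. Gata6 had the lowest p of the members, with -1.65 ± 0.37 (SE, adjusted p = 0.106, limma), and Nkx2-1 had -1.03 ± 0.47 (SE, adjusted p = 0.364). Sftpc itself differed by -2.78 ± 0.65 (SE, adjusted p = 0.111) and Epcam by -2.75 ± 0.82 (SE, adjusted p = 0.182). Both libraries with PI3KαH1047R at 2 weeks are low Epcam libraries, so what sets those libraries apart and the genotype cannot be told apart at that time. The single BRAFV600E library of 2 weeks was assumed to vary like the other groups. One other library decided the call: without BRAFV600E/PI3KαH1047R 6 weeks replicate 1, 2 members passed, Elf5 with an adjusted p of 0.0253 and Gata6 with 0.0353 in limma, where 268 genes in all passed. Epcam and Sftpc passed in the same fit, with adjusted p-values of 0.0251 and 0.0236 in limma.

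At 6 weeks the members were divided, with 8 of 10 below 0 and a median of -0.21. None had an unadjusted p under 0.05, where 4.24% of all genes did (0 of 10 called by limma, 0.0228% of all genes called). Nkx2-1 differed by 0.01 ± 0.29 (SE, 95% interval -0.62 to 0.65). Without replicate 1, the low Epcam library of that time, the median was 0.09 with 4 of 10 below 0, and Nkx2-1 differed by 0.26. Leaving out BRAFV600E replicate 1 of 6 weeks brought the median to 0.002, with 5 below 0, and leaving out BRAFV600E replicate 3 to -0.53, with 10 below 0. At 12 weeks 8 of 10 were above 0, with a median of 0.16, and 0 of 10 were called (0.0114% of all genes called). This direction rested on 1 library: without BRAFV600E replicate 1 of 12 weeks 8 of 10 were below 0, with a median of -0.36, and without BRAFV600E replicate 2 the median was 0.54. At 12 weeks Foxp1 was the 1 member with an unadjusted p under 0.05, at -0.75 ± 0.32 (SE, adjusted p = 1.0, limma), where 3.76% of all genes had one. Nkx2-1 differed by 0.12 ± 0.38 (SE, 95% interval -0.71 to 0.95). The 12 week contrast rests on the 2 libraries whose Kdm5d goes against their labels.

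Whether the effect of PI3KαH1047R differed between weeks was tested directly. Between 2 and 6 weeks all 10 members had a fitted change above 0, toward a less negative difference, with a median of 1.46, and 3 of them, Gata6, Elf5 and Foxp1, had an unadjusted p under 0.05, but 0 of 10 passed (0.0% of all genes called, 1571 or 8.95% with an unadjusted p under 0.05 in limma). The change of Gata6 was 1.59 ± 0.44 (SE, adjusted p = 0.368) and that of Nkx2-1 was 1.04 ± 0.55 (SE, adjusted p = 0.610). Between 6 and 12 weeks the median change was 0.44 and no member had an unadjusted p under 0.05 (0.0% of all genes called, 504 unadjusted). That median was 0.04 without BRAFV600E 12 weeks replicate 1, 0.97 without BRAFV600E 12 weeks replicate 2, 0.13 without BRAFV600E/PI3KαH1047R 6 weeks replicate 1 and 0.26 without BRAFV600E 6 weeks replicate 1.

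**Figure D2:**
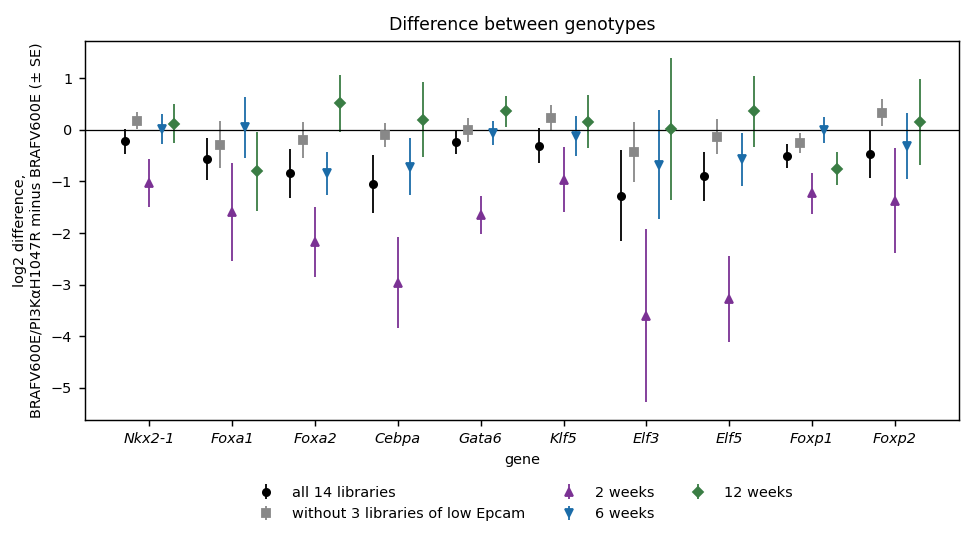
Log2 difference of BRAFV600E/PI3KαH1047R minus BRAFV600E for each member, with the SE from limma as bars, for all 14 libraries, without the 3 of low Epcam, and at 2, 6 and 12 weeks. At 2 weeks all 10 points lie below 0. At 12 weeks 8 of 10 lie above it, and 8 of 10 would lie below it without BRAFV600E replicate 1 of that time.

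Time itself was compared with both genotypes in 1 fit. From 2 to 6 weeks 8 of 10 members had a fitted change above 0, with a median of 0.74, and 3 had an unadjusted p under 0.05, Foxa2 at 1.51 ± 0.47 (SE, adjusted p = 0.246), Klf5 at 0.91 ± 0.36 (SE, adjusted p = 0.334) and Cebpa at 1.41 ± 0.60 (SE, adjusted p = 0.376, limma). None of the 10 passed (0.0513% of all genes called, 11.9% with an unadjusted p under 0.05). When 1 library was left out in turn, Foxa2 ran from 1.16 to 2.16, Klf5 from 0.65 to 1.24 and Cebpa from 0.51 to 2.32. Without the 3 low Epcam libraries, which leave 1 library at 2 weeks, the median was -0.19 with 7 members below 0. It was 1.33 without the BRAFV600E library of 2 weeks and 0.37 without BRAFV600E/PI3KαH1047R replicate 1 of that time. From 6 to 12 weeks 9 of 10 were above 0 with a median of 0.28, and 0 passed (0.0% of all genes called, 933 unadjusted in limma). Without the 3 low Epcam libraries that median was 0.15 with 3 members below 0, and it was 0.57 without BRAFV600E 12 weeks replicate 1, 0.17 without BRAFV600E 12 weeks replicate 2 and 0.07 without BRAFV600E/PI3KαH1047R 12 weeks replicate 2. It turned to -0.13, with 5 members below 0, without both BRAFV600E/PI3KαH1047R libraries of 12 weeks.

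The relation of the members to Sftpc was then examined, since surfactant protein C is the product that AT2 cells are known by. The 14 libraries fall into 3 with 21173 to 82500 normalized counts of Sftpc and 11 with 164859 to 392700. No r with Sftpc over all 14 is therefore given, and slopes on Sftpc over the 14 rest on the same split. In limma fits over the 14 libraries, 7 of the 10 members had a positive slope on log2 Sftpc that passed an adjusted p of 0.05, where 7.6% of all genes did. Cebpa had the slope nearest 1, 0.95 ± 0.09 (SE, adjusted p = 2.37e-06), that is, it changed nearly in proportion to Sftpc. Nkx2-1 had a slope of 0.34 ± 0.05 (SE, adjusted p = 0.000537, limma). The others that passed were Elf5 (0.70), Foxa2 (0.68), Foxp2 (0.62), Klf5 (0.47) and Foxp1 (0.31). Foxa1 (0.39), Elf3 (0.77) and Gata6 (0.19) had positive slopes with adjusted p-values of 0.0812, 0.122 and 0.124. When 1 library was left out in turn, the Elf3 slope ran from 0.18 to 1.49 (adjusted p of 0.0199 to 0.691, limma). The lowest adjusted p-values of Foxa1 and Gata6 in limma were then 0.0324 and 0.0341, and the highest of Foxp1 was 0.0595. Without the 3 low Epcam libraries 0 of 10 members passed (10 genes in all did), with slopes from -0.11 for Gata6 to 1.05 for Foxa1 and 0.35 for Nkx2-1, and with the epithelial score as a covariate 0 of 10 passed as well.

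Within the 11 libraries the members differed in how far they followed Sftpc. For Cebpa, Pearson's r was 0.773 (permutation p = 0.00432) and Spearman's rho 0.727 (permutation p = 0.0142), and r was 0.611 without the 2 libraries farthest from the median of Sftpc. Its slope over the 11 was 0.72 ± 0.21 (SE, adjusted p = 0.300, limma). Klf5 had r = 0.654 (permutation p = 0.0266), rho 0.564 (p = 0.0738 by permutation) and r = 0.766 without those 2 libraries. Nkx2-1 had r = 0.604 (permutation p = 0.0495) and rho 0.473 (p = 0.145 by permutation), with r = 0.482 without the 2 libraries. Elf3 had r = 0.00061 and Gata6 r = -0.134, and the other 5 lay between 0.272 for Foxa2 and 0.541 for Foxa1. Of these 10 relations 3 had an unadjusted p under 0.05, as 11.3% of all tested genes did by the same permutation test, and no slope passed after adjustment over all genes. Epcam had r = 0.810 with Sftpc over the same 11 libraries, higher than any member, and the part of epithelial content in these relations was not tested within the 11.

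Within the 6 BRAFV600E libraries, which hold none of the low Epcam libraries, Cebpa had r = 0.796 with Sftpc (exact permutation p = 0.0361, rho = 0.829) and Foxp2 r = 0.862 (exact permutation p = 0.0333, rho = 0.829). They fell to 0.652 and 0.519 without the 2 libraries farthest from the median of Sftpc. Nkx2-1 had r = 0.757 (exact permutation p = 0.111), and r = 0.137 without the 2 libraries, so that this relation rests on them. Of the 10 relations in this group 2 had a p under 0.05, as 10.7% of all tested genes did, and 2 were negative, Elf3 at r = -0.370 and Gata6 at r = -0.250. Epcam again had the higher value, r = 0.944. These 6 libraries still ranged from 5580 to 43247 in the endothelial sum, which was highest in 6 weeks replicate 3. With the endothelial score, the mean log2 level of the 10 endothelial markers, all 10 members had a negative r, from -0.963 to -0.004. Of these, 3 had a permutation p under 0.05. The part of endothelial content in the relations to Sftpc was not tested within the 6.

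**Figure D3:**
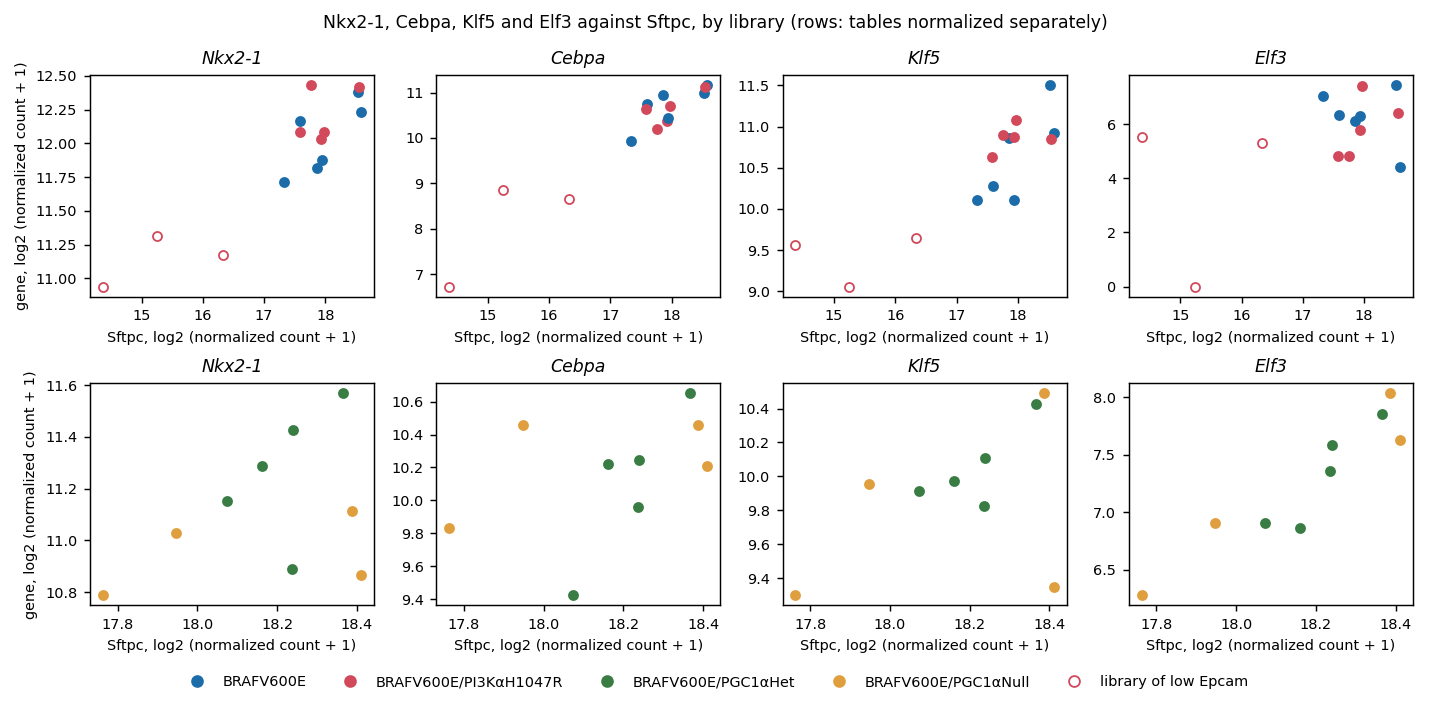
Log2 (normalized count + 1) of Nkx2-1, Cebpa, Klf5 and Elf3 against that of Sftpc, with the 14 libraries of the first table above and the 9 of the second below. Points are libraries, and the 3 open points of low Epcam lie apart at the lower left for Nkx2-1, Cebpa and Klf5.

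The members were also compared with Nkx2-1. Over the 14 libraries 8 of the other 9 had a positive slope on Nkx2-1 that passed in limma, all but Elf3, where 7.54% of all genes did. The slopes of Cebpa, 2.34 ± 0.32 (SE, adjusted p = 0.000252), Elf5, 1.95 ± 0.29 (SE, adjusted p = 0.000400), and Foxp2, 1.78 ± 0.27 (SE, adjusted p = 0.000417), were above 1, as were those of Foxa2 (1.54), Klf5 (1.23) and Foxa1 (1.17), so 6 of the 8 had a slope above 1. The share of all genes with such a slope is not given here. Gata6 was at the threshold with an adjusted p of 0.0499. None of the 9 passed without the low Epcam libraries or with the epithelial score as a covariate. No gene at all passed in either fit, so these counts do not set the members apart. Without the low Epcam libraries the median slope was 0.72 in place of 1.44, with slopes from -0.92 for Elf3 to 1.90 for Foxa1. The slope of Cebpa was then 0.72. Over the 11 libraries Klf5 had r = 0.607 with Nkx2-1 (permutation p = 0.0485), and the other 8 had p-values above 0.05, where 7.62% of all tested genes were under it. Within the 6 BRAFV600E libraries Foxa1 ranked exactly as Nkx2-1 (rho = 1.0, r = 0.812, exact permutation p = 0.00278) and Foxp1 had r = 0.924 (exact permutation p = 0.00833). These were 2 of 9 relations under 0.05 in that group, where 9.88% of all tested genes were.

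By a rule set for naming, the 5 genes with the highest r with Nkx2-1 over the 14 libraries, among 14206 with a mean over 40 normalized counts, were Tpm1 (0.970), Sesn3 (0.958), Slc26a2 (0.956), Bmp1 (0.956) and Rai14 (0.955). The best placed members were Cebpa at rank 137, Elf5 at 167, Foxp2 at 210 and Klf5 at 322. These libraries share the split by Epcam, the ranks were not recomputed without it, and the values are a description. In the 9 libraries of the second table, with 12726 such genes, the 5 were Lpcat1 (0.974), an enzyme of surfactant lipid synthesis, Nedd4l (0.964), Zfp266 (0.962), Bsg (0.957) and Slc22a23 (0.954). There Klf5 was at rank 534 and Gata6 at 667. None of the 5 genes was named in both tables.

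The 3 other lists came from general knowledge. Of 30 other lung epithelial factors 28 were tested, and 0 passed in the pooled comparison of genotypes, with a median difference of -0.13. The lowest of them was Sox9, a factor of distal progenitors, at -2.03 ± 0.48 (SE, adjusted p = 0.225, limma), with 29.4 to 748 normalized counts over the libraries. Of the 22 genes known to be driven by NKX2-1, FOXA or CEBPA, 22 were tested, 0 passed and 5 were lower at an unadjusted p under 0.05, as 3.38% of all genes were, with a median of -0.83. Among these Sftpa1, a surfactant protein gene whose promoter is printed above, differed by -1.53 ± 0.56 (SE, adjusted p = 0.595, limma). Of 12 gut lineage factors 5 were tested and 0 passed, with a median of -0.83, and Foxa3 differed by -2.69 ± 0.55 (SE, adjusted p = 0.148) at only 2.52 to 103 normalized counts. Without the 3 low Epcam libraries 0 of each list passed, the medians of the lists were -0.05, -0.05 and 0.08, and Sox9, Sftpa1 and Foxa3 differed by -1.63, -0.60 and -2.06.

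In relation to Sftpc over the 14 libraries, 16 of the 28 other factors passed in limma, 10 with a positive and 6 with a negative slope, where 7.6% of all genes had a positive and 8.81% a negative slope that passed, 16.4% together. Tfcp2l1 had 0.74 ± 0.11 (SE, adjusted p = 0.000226). Of the 21 driven genes tested beside Sftpc itself, 16 passed, 14 of them positive, and Slc34a2, a phosphate carrier of AT2 cells, had 1.05 ± 0.05 (SE, adjusted p = 1.06e-09). Of the 5 gut factors 2 passed, Hnf4a at 2.01 ± 0.22 (SE) and Foxa3 at 0.89 ± 0.28 (SE, adjusted p = 0.0391). Hnf4a and Foxa3 thus passed with the same sign as Cebpa and Nkx2-1. Without the 3 low Epcam libraries 0 of 28, 4 of 21 and 0 of 5 passed. The slopes were then 0.31 for Tfcp2l1, 0.99 for Slc34a2 (adjusted p = 0.0308, limma), 0.70 for Hnf4a and 0.59 for Foxa3.

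The second comparison asked whether loss of PGC1α, the coactivator encoded by Ppargc1a, changed the lineage factors. The targeted gene had 75.8, 170, 155, 200 and 561 normalized counts in the 5 PGC1αHet libraries and 72.7, 38.0, 51.6 and 124 in the 4 PGC1αNull libraries. All 4 PGC1αNull values were below the PGC1αHet mean, yet 1 of them was above the lowest PGC1αHet library, with a log2 difference of -1.51 ± 0.50 (SE, adjusted p = 0.978 in limma, two-sided exact permutation p = 0.0397). Values per gene do not show whether reads came from the floxed part, so this is a partial check of the labels. None of the 10 members passed (0.0% of all 17424 tested genes called, and 667 had an unadjusted p under 0.05 in limma), and no member had an unadjusted p under 0.05. Of the 10 members 9 were below 0, with a median of -0.25, where all genes had 0.01. The median was -0.14 with 7 below 0 without PGC1αNull replicate 4.

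Nkx2-1 had 2497, 1897, 3035, 2754 and 2275 normalized counts in PGC1αHet and 1867, 2212, 2088 and 1767 in PGC1αNull. All 4 PGC1αNull libraries were below the PGC1αHet mean of 2492 ± 437 (SD, n = 5) and 2 of them were below every PGC1αHet library. The log2 difference was -0.32 ± 0.20 (SE, 95% interval -0.75 to 0.11, adjusted p = 0.998 in limma, two-sided exact permutation p = 0.0635, where 0.00794 is the smallest that 5 against 4 allow). Relative to the epithelial score it was -0.17 (two-sided exact permutation p = 0.540), with 1 PGC1αNull library below every PGC1αHet library and 1 above the PGC1αHet mean. Cebpa was the 1 member above 0, with 1190, 997, 1606, 1212 and 686 against 1183, 1406, 1406 and 910, a log2 difference of 0.14 ± 0.25 (SE). It ran from -0.03 to 0.28 when 1 library was left out in turn, so its sign could turn. The groups of Cebpa overlapped over nearly their whole range.

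Foxa2 had 233, 318, 272, 298 and 241 normalized counts in PGC1αHet and 202, 161, 269 and 270 in PGC1αNull, a log2 difference of -0.29 ± 0.24 (SE), with 2 PGC1αNull libraries below all others. The difference of Foxa2 ran from -0.39 to -0.14 when 1 library was left out in turn. Foxa1 ranged from 182 to 307 and from 179 to 327, Gata6 from 263 to 422 and from 220 to 355, and Klf5 from 905 to 1377 and from 629 to 1437, in PGC1αHet and PGC1αNull respectively. Foxp1 was the member with the smallest difference, -0.02 ± 0.21 (SE, 95% interval -0.47 to 0.43), at 1332 to 2186 and 1484 to 1992. Elf5 ranged from 185 to 610 and from 239 to 469, Elf3 from 116 to 231 and from 76.7 to 261, and Foxp2 from 1003 to 1418 and from 679 to 1125. Each of the 10 members overlapped between the genotypes. The share of all genes that did not overlap is not given.

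Endothelial and club cell markers were higher in the PGC1αNull libraries than in the PGC1αHet libraries. The sums of the epithelial, AT2, AT1, ciliated, fibroblast, macrophage, lymphocyte, neutrophil and erythroid markers overlapped. Yet the median sums of ciliated (184 against 88.8), fibroblast (517 against 227) and macrophage markers (4276 against 1351) were higher in PGC1αNull. Those of lymphocyte, neutrophil and erythroid markers were higher too, and those of epithelial, AT2 and AT1 markers lower. As a mean log2 level, lymphocyte markers did not overlap (5.11 to 6.25 against 3.14 to 4.97). The sum of 10 endothelial markers was 974 to 1825 against 223 to 749, with at least 8 of the 10 above 0 in each library. The sum of 4 club cell markers was 3888 to 17978 against 1160 to 3010, and Scgb1a1, the secretoglobin of club cells, differed by 3.16 ± 0.52 (SE, adjusted p = 0.177, limma). With the endothelial score as a covariate, a choice made after the data were seen, the median of the members was 0.26, with 4 of 10 below 0. That score was 3.52 to 5.67 in PGC1αHet and 6.07 to 6.89 in PGC1αNull, without overlap. The fit therefore cannot tell the effect of genotype from that of endothelial content, and no conclusion is drawn from it.

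**Figure D4:**
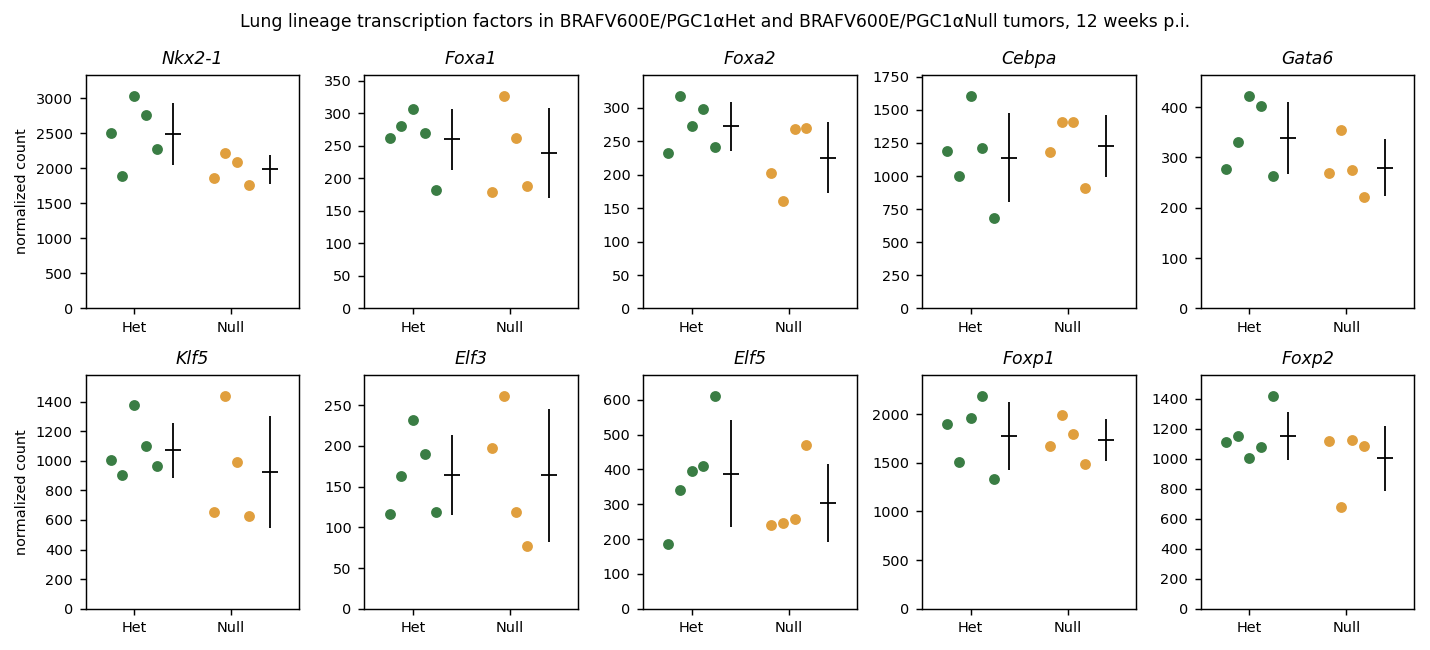
Normalized counts of the 10 lineage factors, one panel per gene, in the 5 PGC1αHet (green) and 4 PGC1αNull (orange) libraries at 12 weeks. Points are libraries, and the bars beside them are the group mean ± SD. The 2 groups overlap in every panel.

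In these 9 libraries Sftpc varied far less, from 222448 to 348418 normalized counts, and the member that followed it was Elf3. Elf3 had 116, 163, 231, 191 and 119 in PGC1αHet and 197, 261, 119 and 76.7 in PGC1αNull, where Sftpc had 293046, 308783, 337890, 309428 and 275804 and then 348418, 342703, 252746 and 222448. Pearson's r of Elf3 was 0.932 (exact permutation p = 0.000584), rho 0.883 (exact permutation p = 0.00308), and r 0.895 without the 2 libraries farthest from the median of Sftpc. The slope of Elf3 was 2.43 ± 0.56 (SE, adjusted p = 0.536, limma), so it did not pass among all genes, of which 0.0% were called and 1418 had an unadjusted p under 0.05. Gata6 had r = 0.697 (exact permutation p = 0.0299), Nkx2-1 r = 0.397 (exact permutation p = 0.285) and Cebpa r = 0.467, while Foxa2, Elf5 and Foxp2 had r of -0.398, -0.347 and -0.409. The order of the members by their relation to Sftpc was therefore not that of the first table, where Elf3 had the r nearest 0 of the 10 within the 11 libraries. Whether the 2 tables differ was not tested, since they were normalized separately. Epcam had r = 0.751 with Sftpc in these 9 libraries.

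In relation to Nkx2-1, Klf5 had r = 0.759 (exact permutation p = 0.0148) and Gata6 r = 0.739 (exact permutation p = 0.0282) over the 9 libraries, 2 of 9 relations with a p under 0.05. The slope of Klf5 was 1.18 ± 0.40 (SE, adjusted p = 0.204, limma), and 0 of 9 members passed (0.0% of all genes called, 3512 or 20.2% with an unadjusted p under 0.05 in limma). Without the 2 libraries farthest from the median of Nkx2-1 these were 0.545 and 0.424. Klf5 had the relation to Nkx2-1 with the lowest p of the members over the 11 libraries of the first table as well.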

How the data were processed

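RNA from 23 libraries of sorted tdTomato+ cells was amplified by the Nugen Ovation Ultralow system, then read in 50 cycles from a single end. Per the labels and methods, the authors quantified transcripts by Salmon and scaled them by DESeq2, default settings, versions not given, on GRCm38. The deposited signal values are the authors' normalized counts per gene, in 2 tables scaled separately, with library sums of 16433800 to 20287300 and 7115750 to 9159570. They are not whole, so depth in reads is unknown and precision rests on the spread between libraries. The 2 tables of the authors' fold changes and p-values were not used. Per the methods, individual animals are the replicates. The labels do not name the mouse of each library, and p-values measure the spread between these libraries.

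Genes with a mean of at least 10 were tested by limma 3.58.1 (R 4.3.3, trend, two-sided) after a log2 transform with a pseudocount of 1, adjusted by Benjamini-Hochberg over all genes, at 0.05. Contrasts within weeks came from group means of genotype by week. Relations are slopes on log2 Sftpc or Nkx2-1, with r and rho by permutation (100000 resamples, exact under 10 libraries) in Python 3.11.15 with scipy 1.17.1. The named genes were the members, Sftpc, Ppargc1a, Kdm5d, the 5 genes most like Nkx2-1 and the lowest p-values of 3 lists. Members and lists were chosen with earlier results of these data known.

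Genes that share sequence were counted by 31 base stretches of their transcripts found in another gene, from 0.243% for Foxa1 to 6.14% for Elf3. The fits were first tested on simulated data.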

Additional observations from a re-analysis of the deposited data

Results flagged for a closer look

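Of 55 tests, each of a gene within a group of 4 to 10 libraries, 3 found a library far from the rest by Dixon's criterion. Chance gives about 1 in 20. The tests share libraries and are not independent. Gata6 in the BRAFV600E library of 2 weeks was 1564 normalized counts, against 586 to 750 in the other 5 BRAFV600E libraries, which are of later weeks. Elf5 in PGC1αNull replicate 4 was 469, against 239 to 257 in the other 3. Foxp2 in PGC1αNull replicate 2 was 679, against 1082 to 1125.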

How the results depend on the processing

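In the comparisons of genotype and of weeks, 0 of 10 members passed under every alternative run, except at 2 weeks, where leaving out 1 library in turn gave 0 to 2, the 2 without BRAFV600E/PI3KαH1047R 6 weeks replicate 1. The 7 members related to Sftpc over 14 libraries became 0 without the 3 libraries of low Epcam and 0 with the epithelial score as a covariate, and 6 to 8 when 1 library was left out. The 8 related to Nkx2-1 became 5 with all genes of any value, 5 with genotype as a factor, 2 without the 2 libraries farthest from the median, 0 without the 3 low Epcam libraries and 0 with the epithelial score. They were 4 to 7 when 1 library was left out, with 4 without BRAFV600E/PI3KαH1047R 2 weeks replicate 2 and 5 without BRAFV600E 6 weeks replicate 1. With the epithelial score the slope on Sftpc turned to -0.23 for Foxp2, and the slope on Nkx2-1 to -0.18 for Foxp1, -0.13 for Foxp2 and -0.036 for Klf5. The cause was not tested.

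Over all genes, the calls at 2 weeks were 3, but 0 with a pseudocount of 4, 0 with sex as a factor and 107 with all genes of any value. At 6 weeks 4 became 7 with the pseudocount, 1 with all genes, 1 with sex and 2 with the block, and at 12 weeks 2 became 4, 16 and, with quantile normalization, 4. The pooled 4 became 7 with the pseudocount or quantile normalization. The change of effect from 2 to 6 weeks went from 0 to 44 with all genes, and from 6 to 12 weeks to 2 with all genes or quantile normalization. From 2 to 6 weeks 9 became 3, 4 and 0 with the pseudocount, quantile normalization and without low Epcam, and 3 without both BRAFV600E/PI3KαH1047R 12 week libraries. The Sftpc relation went from 2881 to 1639 with quantile normalization, 842 without the 2 farthest libraries, 10 without low Epcam and 2 with the epithelial score, and the Nkx2-1 relation from 3098 to 590, 0 and 0 under the last 3.

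The replicate numbers of the labels do not pair the libraries: deviations of same-numbered libraries had r of -0.284, -0.033 and -0.014 at 6 weeks and 0.211, -0.213, 0.145 and -0.467 between PGC1αHet and PGC1αNull. With a replicate block, 0 members passed in the pooled comparison, at 6 weeks and for PGC1αNull, with Nkx2-1 at -0.18, -0.16 and -0.34. With sex as labelled as a factor the pooled median of the members was -0.33. Depth in reads is unknown, and groups of 1 or 2 libraries limit the comparisons at 2 and 12 weeks.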
